A study of Mus musculus with 2 samples.

Results

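Cd36, Fabp4, Fabp5, Lpl and Gpihbp1 are 5 mouse genes that act in the uptake of fatty acids from the blood, and they were chosen by name from the 16098 genes listed for both tissues. Their RNA was counted in single stromal cells of the gut of healthy mice that had received no treatment, in 1 colon and 1 small intestinal library made with the droplet method of 10x Genomics. Live cells negative for CD45 and EpCAM were sorted after enzyme digestion, which took 60 minutes in the colon and 45 minutes in the small intestine, and about 16000 cells were loaded for each. The 2 groups differ in tissue and in digestion time, which cannot be told apart, and carry no modified allele or agent in the labels. The share of cells with RNA of Y-linked genes also differed, at 31.7% in the colon and 73.7% in the small intestine. This difference cannot be told apart from tissue either. The strain, age, sex and number of the animals are not given in the sources used here.

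Circulating triglyceride is carried in lipoproteins. Lpl, lipoprotein lipase, releases fatty acids from them at the capillary wall, where Gpihbp1 moves the enzyme across the endothelial cell and holds it on the lumenal surface. Cd36 is a membrane receptor that takes up long-chain fatty acids, and Fabp4 and Fabp5 are small cytosolic proteins that bind them inside the cell. Lpl is usually made by parenchymal or stromal cells and used by the neighbouring endothelium, so the chain runs across several cell types.

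The genes lie at chr5:17781690-17888801 on the minus strand (Cd36), chr3:10204088-10208576 minus (Fabp4), chr3:10012548-10016607 plus (Fabp5), chr8:68880491-68907448 plus (Lpl) and chr15:75596628-75599481 plus (Gpihbp1), in GRCm38 with GENCODE M21. All 5 are annotated as protein coding. Fabp4 and Fabp5 are neighbours of 1 family, so their transcripts were compared to see whether reads could be counted for the wrong gene. A stretch of 60 coding bases, 81 to 140 of the coding sequence of Fabp4 and 87 to 146 of that of Fabp5, is shown, with the 23 bases that differ in capitals.
Fabp4: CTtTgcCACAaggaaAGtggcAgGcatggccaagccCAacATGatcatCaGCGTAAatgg
Fabp5: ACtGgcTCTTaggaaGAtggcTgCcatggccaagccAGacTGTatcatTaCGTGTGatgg
Over 399 aligned coding bases the pair was 61.4% identical. The longest run of letters shared by the whole transcripts was 12 bases. Runs of 50 bases shared with transcripts of other genes were not found for Cd36, Fabp4 or Gpihbp1. They were found for Fabp5 with 5 processed pseudogenes, none of them listed in the tables. Lpl transcripts shared such runs with 158 combinations of another gene and a transcript class, 85 of them with a gene listed in either table. Some genes, such as Atf7ip, enter this number more than once. Part of the Lpl count is thus less certain.

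The colon library held 6018 cells and 40684070 UMIs (a UMI marks 1 captured RNA molecule), with a median of 6598 UMIs per cell. The small intestinal library held 9359 cells and 58134526 UMIs, with a median of 5943. The 6 labels with at least 50 cells in both libraries were, with colon cells before small intestinal cells, the CD81- FBs (3631 and 2823), Trophocytes (875 and 1913) and SEMFs (1105 and 1109), together called fibroblasts here, and the LECs (217 and 2498), BECs (53 and 524) and SMCs (125 and 468). Summed levels of marker lists were highest in the label they name in both libraries for blood endothelium (BECs), lymphatic endothelium (LECs), smooth muscle (SMCs), trophocytes and SEMFs. The list of CD81- fibroblasts was highest in the CD81- FBs of the colon but in the SMCs of the small intestine (9566 against 8858 CPM). None of the 5 adipocyte genes is listed for the colon, so fat cells could not be looked for there. The immune list of 7 genes summed to 37.2 CPM in colon CD81- FBs, led by Lyz2 (479 UMIs), C1qa (197) and Cd68 (155), and to 5.18 to 51.9 CPM over the colon labels. Ptprc had 2 UMIs in colon CD81- FBs. Only 21 barcodes were shared by the libraries. In the colon, 2700 cells had UMIs of Xist but not of Y-linked genes and 1751 had the reverse, so the library holds cells with transcripts typical of both sexes. In the small intestine, 73.7% of the cells had Y-linked UMIs, against 31.7% in the colon, and Xist is not listed.

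Levels are in CPM, a gene's UMIs per 1000000 UMIs of all cells of the label. No tissue had a second library, so no difference has a replicate check and none was tested. Brackets give exact 95% Poisson intervals of a level, Clopper-Pearson intervals of a share, or exact conditional binomial intervals of a log2 ratio, all of which cover counting error only. A ratio was called past 2-fold only where the 2 libraries together had 100 UMIs or more of the gene. The median gene tested had a log2 ratio of -0.11 to -0.33, depending on the label, that is, slightly toward the small intestine.

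**Figure D1:**
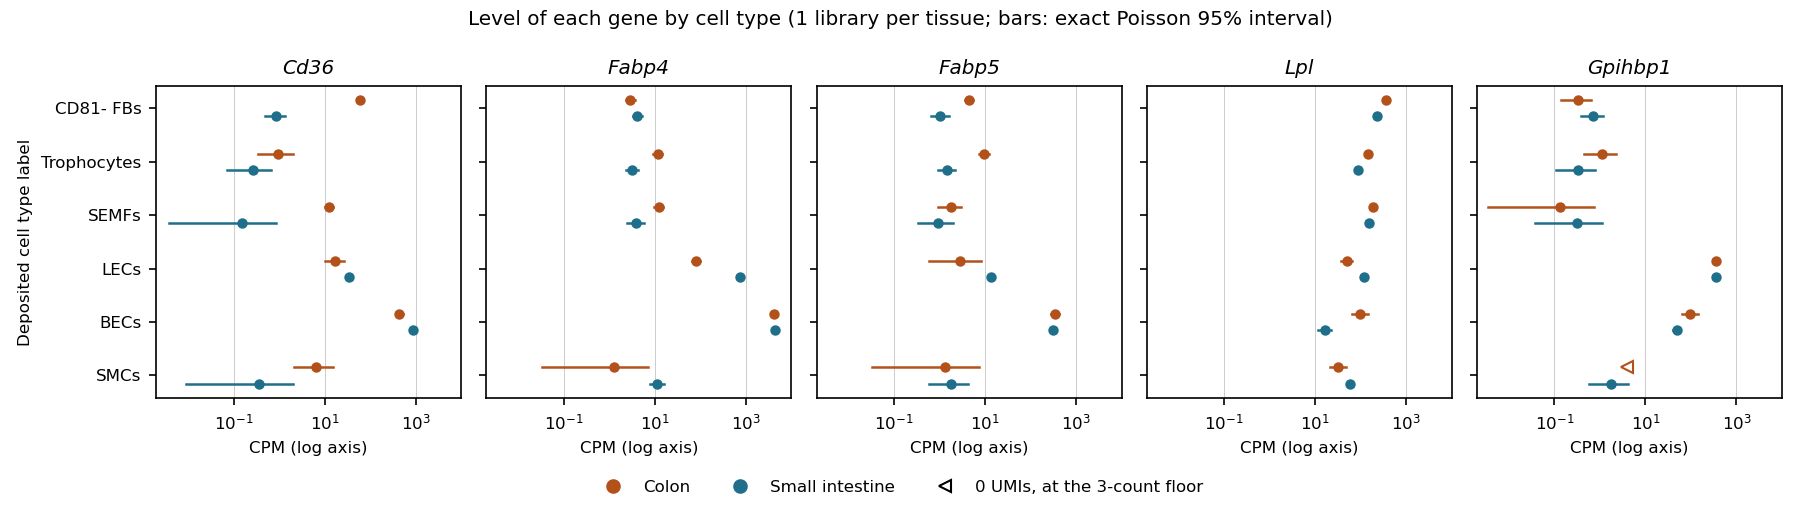
CPM of each gene (log axis) in 6 deposited labels, colon in orange and small intestine in blue, with exact 95% Poisson intervals, and an open triangle at the 3-count floor where no UMI was counted. Cd36, Fabp4 and Fabp5 are highest in BECs, Lpl in CD81- FBs and Gpihbp1 in LECs of both tissues, and the colon and small intestinal points of Cd36 lie far apart in CD81- FBs and SEMFs.

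Lpl, the enzyme, was a fibroblast transcript in both tissues. In CD81- FBs it stood at 365 CPM [357 to 372] in colon cells and 228 CPM [222 to 235] in small intestinal cells, and 65.9% and 61.9% of these cells had a Lpl UMI. Thinned to 3000 UMIs per cell, these shares were 49.8% and 41.4%. SEMFs had 183 and 154 CPM, and Trophocytes 146 and 85.2 CPM. The order of the 3 fibroblast labels was the same in both libraries, with no overlap of neighbouring intervals among them. Lpl was higher in the colon in each, with log2 ratios of 0.68 [0.63 to 0.73] in CD81- FBs, 0.24 [0.13 to 0.36] in SEMFs and 0.78 [0.66 to 0.90] in Trophocytes. None of these reached 2-fold. The pooled fibroblasts stood at 293 and 165 CPM, a log2 ratio of 0.83 that lay above that of 91.4% of the genes tested. It was past 2-fold with only the Y-linked colon cells (1.07) and relative to the median gene (1.005), and was 0.50 with only the Xist cells and 0.57 with the 3 labels given equal weight. The ratio in CD81- FBs depended on which colon cells were used: Lpl was at 458 CPM in cells with only Y-linked UMIs and at 276 CPM in cells with only Xist UMIs, which gave log2 ratios to the small intestine of 1.01 and 0.28. In Trophocytes the order was the opposite, with 136 CPM in the Y-linked and 164 CPM in the Xist cells.

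In the vessels, Lpl was counted in the lymphatic label more than in the blood label of the small intestine. LECs had 119 CPM there, with 35.0% of cells positive, and those of the colon 48.8 CPM, with 19.4% positive. The log2 ratio was -1.29 [-1.72 to -0.89], past 2-fold. The fibroblast marker list moved the other way, with a sum of 1191 CPM in LECs of the colon and of 597 CPM in those of the small intestine. For each 1000 CPM of that list in the colon, Lpl stood at 41.0 CPM in LECs, 31.6 CPM in CD81- FBs, 34.8 CPM in SEMFs and 6.34 CPM in Trophocytes. It stood at 200 CPM in LECs of the small intestine, and there at 12.5 CPM in CD81- FBs, 12.7 CPM in SEMFs and 2.47 CPM in Trophocytes. Without LECs that held UMIs of at least 3 fibroblast genes, the ratio was -1.91. The part of fibroblast RNA in the Lpl of LECs was not tested.

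BECs of the small intestine had 36 Lpl UMIs, or 16.4 CPM, in 18 of 524 cells. Colon BECs had 26 UMIs, or 96.4 CPM, in 4 of 53 cells, and 1 cell held 18 of them. Only 1 UMI was counted in the 49 colon BECs without 3 or more fibroblast genes. The levels in BECs were too few in UMIs to be called, and the log2 ratio was 2.55 over all cells and -1.35 without those cells. Colon SMCs had 32.4 CPM and small intestinal SMCs 59.5 CPM of Lpl, with a log2 ratio of -0.88 [-1.55 to -0.27]. The fibroblast list summed to 2794 CPM in colon and 10004 CPM in small intestinal SMCs. For each 1000 CPM of that list the order was the opposite, with Lpl at 11.6 CPM in colon and 5.95 CPM in small intestinal SMCs. The part of fibroblast RNA in the Lpl of SMCs was not tested.

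Gpihbp1, which carries Lpl across the capillary endothelium, was most abundant in the LECs and not in the blood endothelial label. LECs held 90.0% of all its UMIs in the 6 colon labels and 96.7% in those of the small intestine. The level was 356 CPM in colon [321 to 393] and 348 CPM in small intestinal LECs [337 to 359], and 70.5% and 64.9% of LECs had a UMI. Thinned, the shares were 57.5% and 56.0%. The log2 ratio was 0.03 [-0.12 to 0.18], so a difference of 2-fold lies outside the counting interval. Colon BECs had 96.4 CPM (26 UMIs in 9 cells) and small intestinal BECs 48.4 CPM (106 UMIs in 46 cells). That log2 ratio of 1.00 [0.32 to 1.63] fell just short of 2-fold, with 1 colon cell holding 10 of the 26 UMIs and a ratio of 0.46 without the top cell of each library. Relative to the median gene it was 1.29, past 2-fold, and over all alternatives it ran from -0.46, with only the 2 UMIs of the Y-linked colon cells, to 1.44, without the 5% deepest cells. The fibroblast labels, which should lack the gene, had at most 1.10 CPM and at most 0.461% of positive cells at medians of 5510 to 7807 UMIs per cell. Colon SMCs had no Gpihbp1 UMI in 125 cells, for which the floor of 3 counts is 3.89 CPM.

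The order of labels for Gpihbp1 was LECs, then BECs, then all others, in both tissues, and neighbours among the others had overlapping intervals. Of the endothelial labels deposited for the colon alone, the 45 CapECs held all 26 BEC UMIs of Gpihbp1, 114 CPM. The 4 ArtECs and 4 VenECs had none, and so few cells cannot show the gene to be absent.

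Cd36, the fatty acid receptor, was highest in BECs of both tissues, at 441 CPM [366 to 528] in colon and 862 CPM [823 to 901] in small intestinal cells. A Cd36 UMI was found in 64.2% of colon and 82.1% of small intestinal BECs. Thinned, the shares were 57.5% and 78.6%. The log2 ratio of -0.97 [-1.25 to -0.70] was just under 2-fold. It was past 2-fold without the cell with most Cd36 UMIs in each library (-1.07), with only the Y-linked colon cells (-1.16) and without BECs that held at least 3 lymphatic genes (-1.06). It stayed under 2-fold with only the Xist colon cells (-0.87), without the 5% deepest cells (-0.85) and without BECs that held at least 3 fibroblast genes (-0.83). The fibroblast list summed to 2633 CPM in colon and 283 CPM in small intestinal BECs, and its part in the ratio was not tested. In BECs, 3.1% of 4221 tested genes were at least 2-fold higher in the colon and 19.6% in the small intestine, and none of the 4 fatty acid uptake genes with enough UMIs there was past that limit. The median gene in BECs stood at -0.30, and relative to it Cd36 was at -0.67, the same as by a mean of CPM per cell.

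The largest difference between the tissues was that of Cd36 in fibroblasts. Colon CD81- FBs had 60.9 CPM (1505 UMIs) and small intestinal ones 0.843 CPM (17 UMIs). This was 72.2-fold higher in the colon, a log2 ratio of 6.17 [5.49 to 6.96] that exceeded that of 99.9% of the 12194 genes tested. A Cd36 UMI was found in 12.3% of colon [11.3 to 13.4] and 0.390% of small intestinal CD81- FBs. Thinned, the shares were 8.89% and 0.223%. In CD81- FBs, 6.46% of all genes tested were at least 2-fold higher in the colon and 10.4% in the small intestine. Of the 4 uptake genes with enough UMIs there, Cd36 and Fabp5 were past 2-fold toward the colon, and none toward the small intestine.

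Cd36 was also present in colon SEMFs, at 12.4 CPM (92 UMIs) against 0.153 CPM (1 UMI) in the small intestine. The log2 ratio was 6.33 [3.82 to 11.65], with too few UMIs for a call. Colon Trophocytes had 0.942 CPM and those of the small intestine 0.266 CPM, with 0.571% and 0.209% of cells positive at medians of 7186 and 7807 UMIs. The 12.3% of positive CD81- FBs in the colon, at a lower median of 6697 UMIs, lay above the share of Trophocytes beyond counting error. Free RNA of the suspension was not measured. Without cells that held at least 2 genes of the immune or adipocyte list the log2 ratio in CD81- FBs was 6.21. In both sets of colon cells split by Xist and Y-linked UMIs the CD81- FBs held Cd36, at 60.2 CPM (Xist) and 70.3 CPM (Y-linked).

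Colon LECs had 16.9 CPM of Cd36 (18 UMIs) and small intestinal LECs 34.4 CPM (385 UMIs), with a log2 ratio of -1.02 [-1.79 to -0.34]. The order of labels in the colon was BECs, CD81- FBs, LECs, SEMFs, SMCs and Trophocytes, and the intervals of LECs, SEMFs and SMCs overlapped those of their neighbours. In the small intestine BECs were followed by LECs at 25.1-fold less, and the 4 other labels, all under 1 CPM, had overlapping intervals. BECs thus held 82.2% of the Cd36 UMIs of the small intestinal labels but 6.82% of those of the colon labels, where CD81- FBs outnumbered BECs by 3631 to 53 cells.

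Fabp4, the fatty acid binding protein of fat cells and capillaries, was at 4202 CPM in colon BECs [3960 to 4453] and 4331 CPM in small intestinal BECs [4244 to 4419]. A Fabp4 UMI was found in 84.9% and 96.0% of them. The log2 ratio was -0.04 [-0.13 to 0.05], so the 2 libraries were alike within counting error and no difference of 2-fold was compatible with the interval. This small ratio changed sign with the cells or scaling used, over a range of -0.19 to 0.26.

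LECs differed between the tissues in Fabp4. In the colon they had 80.7 CPM (86 UMIs), with 18.9% of cells positive, and in the small intestine 746 CPM (8355 UMIs), with 75.0% positive. Thinned, the shares were 15.5% and 71.5%. The log2 ratio was -3.21 [-3.53 to -2.90], and only 0.534% of the 9169 genes tested in LECs lay below it. In LECs, 3.45% of tested genes were at least 2-fold higher in the colon and 15.4% in the small intestine. Of the 5 uptake genes, Cd36, Fabp4, Fabp5 and Lpl were past 2-fold toward the small intestine, and Gpihbp1 was not. Cd36 fell short of the limit relative to the median gene (-0.76) and with only the Y-linked colon LECs (-0.51), and Lpl with those cells (-0.80).

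Small intestinal LECs had 21.7 Fabp4 UMIs for each Cd36 UMI, and BECs of the same library had 5.03. In the colon the order was the opposite, with 4.78 in LECs and 9.52 in BECs. The SMCs and fibroblast labels of the small intestine had 3.19 to 11.4 CPM of Fabp4. At most 2.78% of their cells were positive, at higher median depths. The part of free RNA or of blood endothelial cells in the Fabp4 of LECs was not tested. Leaving out LECs with at least 3 fibroblast genes gave -3.02. The colon LECs with only Y-linked UMIs had 129 CPM and those with only Xist UMIs 51.4 CPM, with log2 ratios to the small intestine of -2.53 and -3.86.

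In fibroblasts Fabp4 was low and uneven. Colon SEMFs had 90 UMIs, of which 1 cell held 63, colon Trophocytes 73, of which 1 cell held 31, and colon CD81- FBs 72, of which 1 cell held 45. In CPM the colon and small intestine stood at 12.1 and 3.83 in SEMFs, 11.5 and 3.19 in Trophocytes, and 2.91 and 4.12 in CD81- FBs. The log2 ratios of 1.66 in SEMFs and 1.84 in Trophocytes were past 2-fold, where 5.36% and 4.23% of all tested genes were at least 2-fold higher in the colon and 15.1% and 8.24% in the small intestine. Lpl, the other uptake gene with enough UMIs in each of these labels, was not past it. Without the cell with most Fabp4 UMIs in each library the ratio fell to 0.17 in SEMFs. In Trophocytes it was 1.24, with 42 UMIs left in each library, too few for a call. With only the Xist colon cells, which held 77 and 31 Fabp4 UMIs, the ratios were 2.48 and 1.64. With only the Y-linked colon cells, which held 2 and 6, they were -2.14 and -0.16. In SEMFs the 77 UMIs lay in 0.385% of 520 Xist cells, and 0.619% of the Y-linked SEMFs were positive. The opposite directions thus rest on few cells and do not show a difference between Xist and Y-linked cells.

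Fabp5, the binding protein also known from skin, had 345 CPM in colon BECs [278 to 422] and 304 CPM in small intestinal BECs [282 to 328], with 45.3% and 48.7% of cells positive. The log2 ratio was 0.18 [-0.15 to 0.50]. It was -1.31 with the 11 colon BECs that had only Y-linked UMIs, which held 7 Fabp5 UMIs. All other labels had under 14 CPM. Within the colon the next label was the Trophocytes at 9.74 CPM, and within the small intestine the LECs at 13.7 CPM.

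Fabp5 was higher in colon than in small intestinal CD81- FBs, at 4.45 against 1.04 CPM (110 and 21 UMIs), with a log2 ratio of 2.10 [1.41 to 2.84]. Trophocytes had 9.74 and 1.46 CPM (62 and 22 UMIs), a log2 ratio of 2.73 [2.01 to 3.51] with too few UMIs for a call. The shares of positive cells were 2.70% and 0.744% in CD81- FBs and 4.23% and 1.10% in Trophocytes, beside 1.38% (3 of 217 cells) and 2.92% in LECs. Thinned, the colon shares were 1.44% [1.07 to 1.90] in CD81- FBs and 1.84% [1.03 to 3.01] in Trophocytes. The colon SEMFs, at 0.189% [0.0229 to 0.680], lay below both, and the LECs, at 1.00% [0.121 to 3.57] with 2 of 200 cells, overlapped both. In the small intestine, the thinned shares of all 3 fibroblast labels were 0.268% to 0.299%. In LECs the colon had less, with 3 UMIs in the colon and 154 in the small intestine, 26 of them in 1 cell. The log2 ratio there was -2.29 [-4.58 to -0.71]. In the pooled fibroblasts, where 6.88% of all tested genes were at least 2-fold higher in the colon and 9.47% in the small intestine, Cd36 (log2 ratio 6.30) and Fabp5 (2.03) were past 2-fold, and Fabp4 and Lpl were not.

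**Figure D2:**
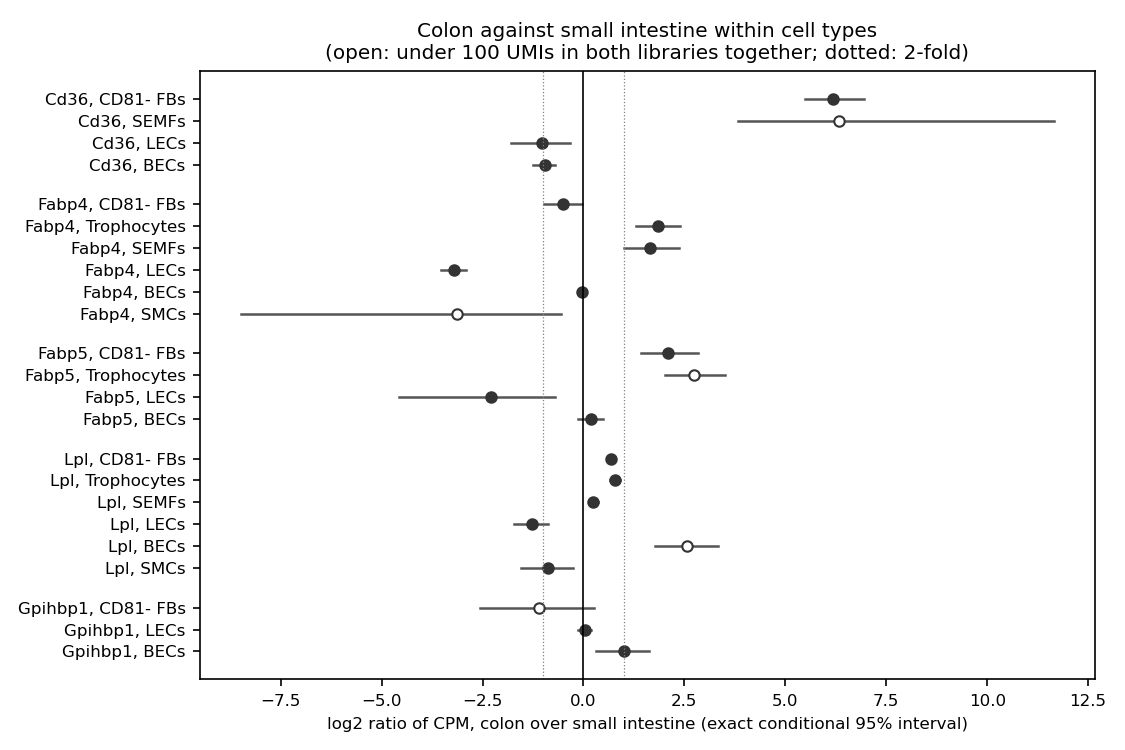
Log2 ratio of CPM, colon over small intestine, for each gene and label with 20 UMIs or more in the 2 libraries together, with exact conditional 95% intervals, open points where under 100 UMIs were counted and dotted lines at 2-fold. Cd36 is far to the right in CD81- FBs (6.17), Fabp4 is far to the left in LECs (-3.21), and Fabp4 in BECs and Gpihbp1 in LECs sit at 0 within counting error.

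In SMCs, Lpl was the only uptake gene with enough UMIs, and it was not past 2-fold, where 3.37% of 5602 genes were at least 2-fold higher in the colon and 17.3% in the small intestine. Over all the labels, the 12 levels of Cd36, Fabp4 and Fabp5 went together (Pearson r of log2(CPM + 10) of 0.88 for Cd36 and Fabp4, 0.92 for Cd36 and Fabp5, and 0.91 for Fabp4 and Fabp5). Lpl had r of -0.33 to -0.44 with the other genes. These are descriptions over 6 labels in 2 libraries, whose points share a library and its depth.

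Cd36 in colon CD81- FBs was concentrated in part of the cells. Of the 3631 cells, 3184 had no Cd36 UMI, 140 had 1, 85 had 2, 140 had 3 to 5 and 82 had more than 5. An even spread of the same UMIs over cells by depth would leave 33.4% of cells positive, against the 12.3% observed. The 181 cells (5%) with most Cd36 UMIs held 71.2% of all. For Lpl in the same cells, the top 5% held 27.0%. This share also rises as the mean falls, and the means were 0.41 UMIs per cell for Cd36 and 2.48 for Lpl. For Lpl, an even spread would leave 88.9% of cells positive, against the 65.9% observed. The variance over the mean, after depth, was 4.96 for Cd36 and 4.45 for Lpl. This measure also depends on the mean, so these values do not show the 2 genes to be equally uneven.

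The cells were split into 447 with and 3184 without a Cd36 UMI, with medians of 7628 and 6590 UMIs per cell. Since the split uses Cd36 itself, what follows is a description with no test. Among 7495 eligible genes, 3.42% were at least 1.5-fold higher and 2.8% at least 1.5-fold lower in the Cd36-positive cells after adding 10 CPM to both. The 10 highest and 10 lowest by that ratio are named here. All 20 kept their direction when cells were thinned and when positive cells needed 2 UMIs. They also kept it within the Xist and the Y-linked cells taken alone. These settings reuse the cells from which the genes were picked, so they are no independent check.

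The genes highest in the Cd36-positive cells included secreted and matrix proteins. Agt, the precursor of angiotensin, stood at 228 against 33.3 CPM. Cxcl14, a chemokine, stood at 442 against 97.2 CPM, and Nrg1, a ligand of ErbB receptors, at 140 against 29.1 CPM. The matrix genes Col6a5 and Emid1 were at 146 against 26.4 CPM and at 99.8 against 15.5 CPM. Among them were also Lef1, a transcription factor of the Wnt pathway (37.0 against 2.64 CPM), and the mechanically gated channel gene Piezo2 (36.1 against 2.60 CPM). Grip1 (141 against 27.1 CPM), Tbxas1, thromboxane synthase (62.0 against 11.7 CPM), and Rgs10, a regulator of G protein signalling (646 against 188 CPM), completed the 10.

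The genes lowest in the Cd36-positive cells were led by Grem1, a secreted antagonist of BMP signals, at 49.8 against 383 CPM. Cxcl13, a chemokine that attracts B cells, was at 138 against 895 CPM. The others were the matrix genes Mfap5 (50.6 against 288 CPM), Col8a1 (10.8 against 73.2 CPM) and Mgp (734 against 2842 CPM), the cell adhesion genes Lsamp (25.6 against 180 CPM) and Nlgn1 (24.7 against 162 CPM), and Frmpd4, Adamts19 and Kcnt2 (48.1, 6.25 and 6.82 CPM against 307, 54.9 and 56.1 CPM). Of these 10 genes, 6 were higher in colon Trophocytes than in all colon CD81- FBs, for example Mfap5 (774 against 254 CPM). The other 4 were lower, for example Cxcl13 (41.5 against 787 CPM). The share of all eligible genes higher in Trophocytes was not computed.

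**Figure D3:**
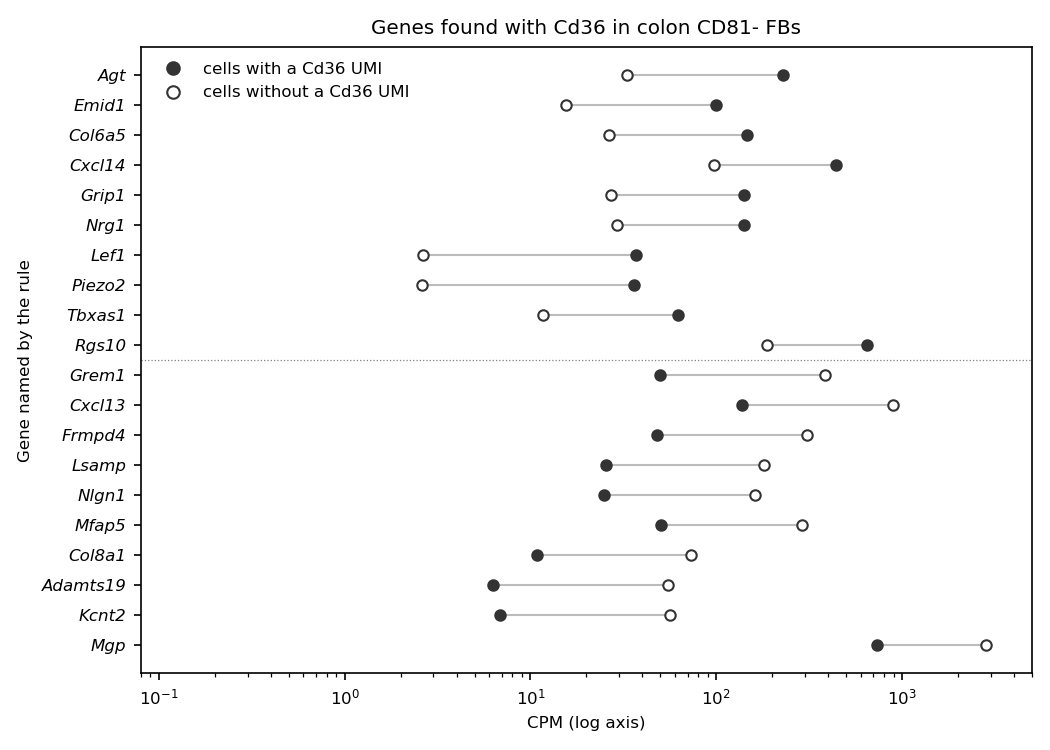
CPM (log axis) of the 10 highest and 10 lowest genes in colon CD81- FBs, in the 447 cells with a Cd36 UMI (filled) and the 3184 cells without (open). The filled points lie to the right of the open ones for Agt (228 against 33.3 CPM) and to the left for Grem1 (49.8 against 383 CPM).

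The same genes were compared with the other colon fibroblasts. Of the 10 higher genes, 9 were at a higher level in the colon SEMFs than in all CD81- FBs, for example Emid1 (362 against 27.5 CPM) and Cxcl14 (600 against 146 CPM). Col6a5 was the exception, at 13.2 against 43.5 CPM. All 10 lower genes were lower in SEMFs, for example Grem1 (4.71 against 336 CPM). The share of all eligible genes that differ this way was not computed, so these counts have no background beside them. Some of the higher genes were also higher in colon SMCs, such as Rgs10 (1301 against 253 CPM). Others were lower there, such as Cxcl14 (106 against 146 CPM). In the lists, the SEMF markers summed to 940 CPM in Cd36-positive and 596 CPM in Cd36-negative cells, with all 6 higher. The trophocyte markers summed to 254 against 778 CPM, with none of 5 higher. This list includes Grem1, already named as the lowest gene of the split, which alone stood at 49.8 against 383 CPM. Cd36 itself was lower in SEMFs (12.4 CPM) than in CD81- FBs (60.9 CPM).

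Marker lists of other cell types had like or lower sums in the Cd36-positive cells. The smooth muscle list summed to 148 CPM in positive and 141 CPM in negative cells, with 5 of 6 genes higher in positive cells. The blood endothelial list summed to 20.2 and 20.3 CPM, also with 5 of 6 higher. The immune list summed to 18.5 and 40.3 CPM, with 0 of 7 higher and Ptprc at 0 and 2 UMIs. The list of CD81- fibroblasts was at 8459 against 6399 CPM, with 2 of 3 higher and Cxcl13 lower (138 against 895 CPM). Of the other lipid genes, Lpl stood at 526 against 338 CPM (log2 ratio 0.64) and Plin2, which coats lipid droplets, at 76.2 against 28.8 CPM (1.40). Pparg, a transcription factor that drives fat cell genes, was at 51.7 against 65.1 CPM and Fabp5 at 3.41 against 4.63 CPM. Fabp4 had 48 UMIs in positive and 24 in negative cells, and 1 cell held 45 of the 72. In the small intestine only 11 CD81- FBs had a Cd36 UMI, and there 6 of the 10 higher and 9 of the 10 lower genes lay on the same side. So few cells give little weight to either count.

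Within the blood endothelium, cells with and without a Gpihbp1 UMI were compared. In the colon, the 9 positive BECs had more Cd36 (843 against 366 CPM), Fabp4 (7871 against 3511 CPM) and Fabp5 (609 against 295 CPM) than the 44 negative ones. Lpl lay the opposite way, at 23.4 against 110 CPM (1 and 25 UMIs). Their capillary list (6 genes such as Rgcc, Kdr and Cd300lg) summed to 5248 against 2009 CPM. Their venous list (such as Selp and Ackr1) summed to 93.7 against 445 CPM, with Vwf alike at 70.3 against 70.5 CPM. The fibroblast list moved the opposite way to the capillary list, at 258 against 3080 CPM. Its part in the differences was not tested.

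In the small intestine, the 46 positive and 478 negative BECs had like levels of Cd36 (854 against 863 CPM), Fabp4 (3883 against 4385 CPM) and Fabp5 (312 against 303 CPM). The capillary list was again higher in the positive cells (1837 against 830 CPM) and the venous list lower (1303 against 4880 CPM). Kdr (987 against 375 CPM), Rgcc, Car4 and Cd300lg were higher in the positive cells. Sgk1 was alike (261 against 248 CPM), and Prx had 0 and 6 UMIs. Of the venous list, Nr2f2 was alike (350 against 384 CPM). The lymphatic list was higher in the positive BECs, at 6595 against 628 CPM, and Lpl was at 89.7 against 7.66 CPM. Kdr also stood at 834.5 and 774.1 CPM in LECs with and without a Gpihbp1 UMI. The part of lymphatic RNA in the capillary sum was not tested. The 28 BECs with at least 3 lymphatic genes held 33 of the 106 Gpihbp1 UMIs and 23 of the 36 Lpl UMIs. In the 496 other BECs, 73 Gpihbp1 and 13 Lpl UMIs were counted.

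**Figure D4:**
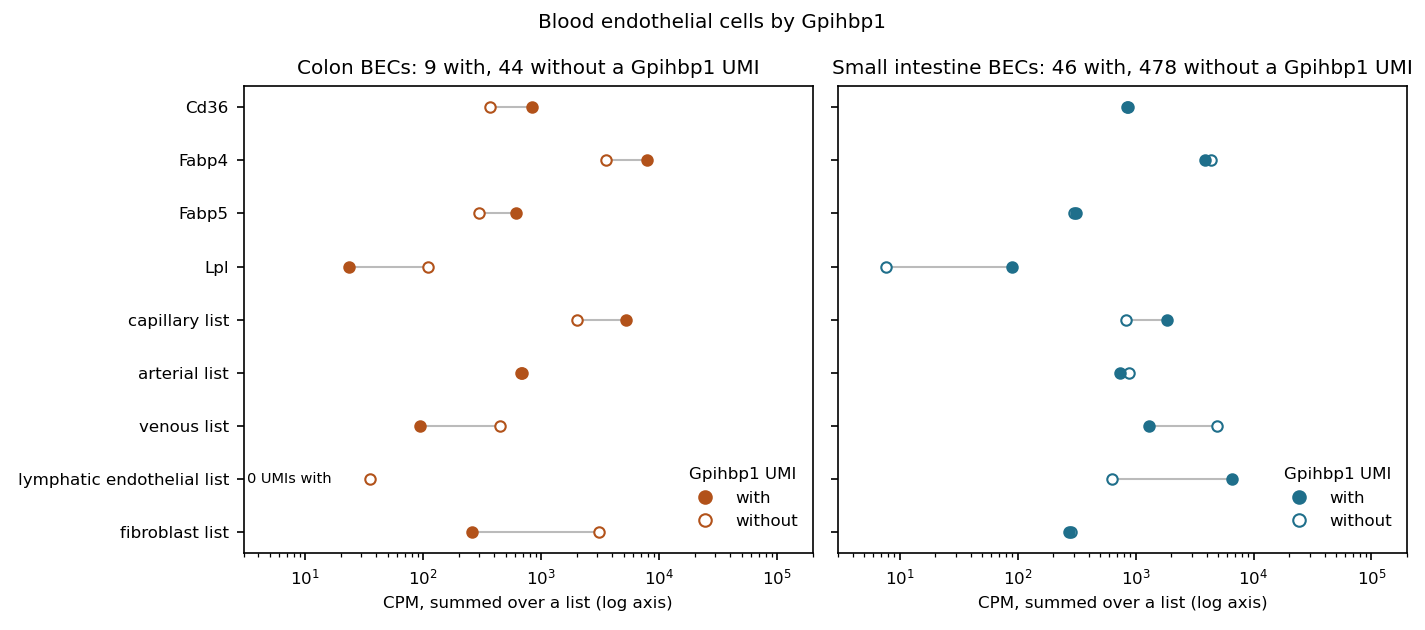
CPM (log axis) of the other uptake genes and summed CPM of marker lists in BECs with (filled) and without (open) a Gpihbp1 UMI, colon on the left and small intestine on the right. The summed capillary list is higher and the summed venous list lower with Gpihbp1 in both. Cd36, Fabp4 and Fabp5 are higher with Gpihbp1 in the colon alone, and Lpl and the lymphatic list in the small intestine alone. These differences were not tested.

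Most BECs held several of the uptake genes at once. In the small intestine, 426 of the 430 Cd36-positive BECs also had a Fabp4 UMI, against 81.9% of the Cd36-negative ones, and 54.7% against 21.3% had a Fabp5 UMI. In the colon, 32 of 34 Cd36-positive BECs had Fabp4. Deeper cells are more often positive for any pair, so these shares do not show that the genes go together beyond depth. The 45 colon CapECs had 449 CPM of Cd36, 4433 CPM of Fabp4 and 401 CPM of Fabp5. The 4 VenECs had 101 Fabp4 UMIs, 4208 CPM.

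In LECs, cells with and without a Gpihbp1 UMI differed by less than 2-fold in the other uptake genes of the small intestine. The 1621 positive and 877 negative LECs there had 34.8 and 33.5 CPM of Cd36, 120 and 116 CPM of Lpl, 804 and 619 CPM of Fabp4 (log2 ratio 0.38 [0.31 to 0.45]), and 11.5 and 18.6 CPM of Fabp5 (-0.69 [-1.17 to -0.21]). The genes lowest in the positive cells were fibroblast genes, Adamdec1 (35.3 against 264 CPM), Dcn (177 against 944 CPM), Col3a1 (52.6 against 277 CPM), Col1a1 (37.4 against 202 CPM) and Sparc (57.6 against 285 CPM). The fibroblast list summed to 261 against 1321 CPM, and median depth was 4386 against 3673 UMIs. In the colon LECs, this list stood at 1220 CPM in positive and 1118 CPM in negative cells.

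The genes with the most similar levels over the 12 combinations of label and library were sought among 3507 genes. For Cd36 they were Clec14a, an endothelial surface gene (r = 0.95), Rasa4 (0.94) and Plvap (0.93), which forms the diaphragms of capillary pores. Clec14a, like Cd36, was higher in CD81- FBs and SEMFs of the colon (18.4 and 37.3 CPM) than of the small intestine (1.04 and 1.23 CPM). For Fabp4 they were Itpkb, Cd93 and Cyyr1 (r of 0.99 each). For Fabp5 they were Flt1, a receptor of VEGF (0.99), Rasa4 and Mcf2l (0.98 each). For Gpihbp1 they were Arhgdib, Meox1 and Sh3tc1 (0.98 to 0.99). For Lpl the nearest genes were less alike, with Mcrip1 at 0.92, P4hb at 0.86 and Lgals3bp at 0.86.

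Other genes of fatty acid handling were taken from 5 lists. In pooled fibroblasts, 6 were at least 2-fold higher in the colon and 3 in the small intestine, of 49 with enough UMIs. Of 6 transport and binding genes, Cav1, the coat protein of caveolae (180 against 31.8 CPM, log2 ratio 2.50), and Fabp3 (4.91 against 0.671 CPM, 2.87) were higher in the colon, and none in the opposite direction, with a median of 0.00 against -0.17 over all genes tested. Of 11 lipase partners and lipoprotein receptors, Lipg, endothelial lipase, was higher in the colon (4.62 against 0.408 CPM, 3.50). Angptl4, an inhibitor of Lpl (17.6 against 39.2 CPM, -1.16), and the lipoprotein receptor Vldlr (8.49 against 36.2 CPM, -2.09) were higher in the small intestine, and the list median was -0.34. The pooled values mix labels whose shares differ between the libraries. By label, Angptl4 was at 22.5 against 25.1 CPM in CD81- FBs (-0.15 [-0.33 to 0.02]), 6.99 against 22.2 CPM in SEMFs (-1.67) and 11.0 against 65.6 CPM in Trophocytes (-2.58). Vldlr stood at -1.59 in CD81- FBs and -1.21 in Trophocytes, and at 1.40 in SEMFs on 9 and 3 UMIs.

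Of 13 genes of acyl-CoA synthesis and lipid droplets, Dgat2, which makes triglyceride (7.76 against 1.97 CPM, 1.98), and Acsl1, which activates fatty acids (12.6 against 5.95 CPM, 1.09), were higher in the colon, and none in the opposite direction, with a median of 0.10. By label, Acsl1 was past 2-fold in CD81- FBs (1.12) but not in Trophocytes (0.91) or SEMFs (0.49). Of 11 genes of mitochondrial oxidation only Acads was past 2-fold (31.3 against 9.71 CPM, 1.69), with a median of -0.08. Of 8 transcription factors only Foxo1 was (52.3 against 130.0 CPM, -1.31), with -1.30 in CD81- FBs, -0.96 in Trophocytes and -0.53 in SEMFs. Pparg stood at 0.70. Over all 5 lists, 12.2% of the genes were higher in the colon and 6.12% in the small intestine, beside the 6.88% and 9.47% of all genes tested.

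In LECs, 3 genes of the lists were at least 2-fold higher in the colon and 5 in the small intestine, of 35 with enough UMIs (8.57% and 14.3%, beside 3.45% and 15.4% of all genes). Apoe, an apolipoprotein (139 against 35.8 CPM, log2 ratio 1.96), its receptor Lrp1 (40.4 against 14.6 CPM, 1.46) and the droplet protein Plin3 (1.07) were higher in the colon. Vldlr (29.1 against 103 CPM, -1.83), Angptl4 (3 UMIs in the colon, -2.41 [-4.70 to -0.84]), Cpt1a, which admits fatty acids to mitochondria (-1.02), Tcf15 (-1.90) and Foxo1 (-1.02) were higher in the small intestine. Apoe and Lrp1 are also fibroblast transcripts, and the fibroblast list was higher in colon LECs, as given above. Its part in these 2 ratios was not tested.

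In BECs, 0 of 20 list genes with enough UMIs were at least 2-fold higher in the colon and 6 were in the small intestine (30.0%, beside 19.6% of all genes). Among the 5 transcription factors measured, 4 were lower in the colon, with a median of -1.33 against -0.30 over all genes tested. Meox2, which with Tcf15 is known to drive fatty acid uptake genes in heart endothelium, had 3 UMIs in the colon and 209 in the small intestine (11.1 against 95.3 CPM, -3.10 [-5.39 to -1.53]). Foxo1 (89.0 against 273 CPM, -1.62), Cebpb (126 against 278 CPM, -1.14) and Ppard (-1.33) were the others. Tcf15 stood at 145 against 73.4 CPM, a log2 ratio of 0.98, just under 2-fold. Acsl5 (2 UMIs in the colon, -2.65 [-5.71 to -0.76]) and Acadm (-1.28) were also lower in the colon. The 14 of 71 list genes that are not listed in both tables, such as Slc27a5 and Plin1, were not compared.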

How the data were processed

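Raw UMI counts per gene and cell, as the authors deposited them, were the only values used. Cell Ranger 7.1.0, Seurat 4 and the build mm10 are named in the submitters' processing notes. How cells and genes were filtered, how cells were labelled and whether doublets were removed is not given in the sources used here. The deposited labels were used as they stand, with the 3 endothelial labels of the colon pooled as BECs.

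UMIs were summed per label and library with Python 3.11.15, numpy 2.4.6 and scipy 1.17.1. For a gene with no UMI the floor was 3 counts. Shares were also computed after thinning each cell to 3000 UMIs, leaving out shallower cells. No doublet caller was run, and leaving out the 5% deepest cells of each label stood in for it. The other alternatives were a mean of CPM per cell, other totals, ratios relative to the median gene, and other limits for calls. They also left out the cell with most UMIs of the gene or cells with at least 2 immune genes. A filter for 2 fat cell genes could remove no cell, since too few of these genes are listed. Colon cells with only Xist or only Y-linked UMIs were also used alone.

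The genes, gene lists, markers and comparisons were chosen with earlier results of these data known. The named-gene rule took the 5 uptake genes, the 10 highest and 10 lowest genes of the Cd36 split (at least 100 UMIs, detected in 10% of positive or negative cells, 10 CPM added), the 3 most similar genes over 12 combinations of label and library (at least 100 CPM in 1), and, from each of the 5 lists, the 4 most abundant and the 2 highest and 2 lowest by ratio. The other list genes past 2-fold in LECs and BECs, the Gpihbp1 split of LECs, the detection of gene pairs in single cells and 2 alternatives (BECs without lymphatic genes, and BECs and LECs without fibroblast genes) were added after values were seen.

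Interval code was tested on simulated counts for each comparison. In the one for CD81- FBs, with 12194 genes, the intervals held the true ratio of 96.5% of the 200 changed genes. The simulated counts were Poisson draws, which the intervals assume, so this checks the code only. Real counts were more uneven over cells. Their variance over the mean, after depth, was 4.96 for Cd36 in colon CD81- FBs and 33 for Fabp4 in colon BECs. Coverage under such spread was not tested.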

Additional observations from a re-analysis of the deposited data

Results flagged for a closer look

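Several uptake genes moved one way between the tissues in 1 cell type and the opposite way in another, and none of these differences was tested, since each tissue has 1 library. Among CD81- FBs the colon had more Cd36 (log2 ratio 6.17) and among LECs less (-1.02), a difference of 7.20. Fabp4 was higher in colon Trophocytes (1.84) and SEMFs (1.66) and lower in colon LECs (-3.21), differences of 5.05 and 4.87, and without the cell with most Fabp4 UMIs in each library the fibroblast values were 1.24 and 0.17. Fabp5 was higher in colon CD81- FBs (2.10) and lower in colon LECs (-2.29), a difference of 4.38, with 3 UMIs in colon LECs, whose thinned share of positive cells overlapped that of CD81- FBs.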

How the results depend on the processing

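No paired analysis was possible because each tissue has 1 library. Over the 9 ratios the text turns on, 60 of 81 alternative values stayed within the counting interval and 21 lay outside it. With only the Y-linked colon cells, log2 ratios were 1.01 (Lpl, CD81- FBs), -2.53 (Fabp4, LECs), -0.80 (Lpl, LECs), 0.28 (Gpihbp1, LECs), -0.19 (Fabp4, BECs) and -1.31 (Fabp5, BECs). Fabp4 reversed with these cells in Trophocytes (-0.16) and SEMFs (-2.14), on 6 and 2 colon UMIs. With only the Xist cells they were 0.28 (Lpl, CD81- FBs) and -3.86 (Fabp4, LECs). As a mean of CPM per cell they were 0.62 (Lpl, CD81- FBs), -0.67 (Cd36, BECs) and 0.14 (Fabp4, BECs), and relative to the median gene 0.90 (Lpl, CD81- FBs), 0.30 (Gpihbp1, LECs), -0.67 (Cd36, BECs) and 0.26 (Fabp4, BECs). Fabp4 in BECs was -0.14 without the top cell, 0.15 without the 5% deepest cells, -0.15 without cells with 3 lymphatic genes and 0.25 without cells with 3 fibroblast genes. The last setting gave 0.50 for Fabp5 in BECs and -1.91 for Lpl in LECs. The causes were not tested. Other list genes past the limit numbered 17 in fibroblasts, 13 in LECs and 11 in BECs at 1.5-fold, and 15, 13 and 14 with at least 10 UMIs (main values 9, 8 and 6). In the Cd36 split, 86 genes were higher and 83 lower at 2-fold (256 and 210 at 1.5-fold), and 359 were lower in the Y-linked cells. Fabp5 in LECs could not be formed with the Y-linked cells, which held no Fabp5 UMI. The 53 colon BECs and 217 colon LECs limit all endothelial ratios.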
